A study of Mus musculus with 31 samples.

Results

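A set of 57 mouse genes of the cell cycle and DNA replication was followed through bone marrow-derived macrophages that had been given an inflammatory stimulus, a glucocorticoid and a compound aimed at BRD9. The set was a fixed list of symbols, each found by its Ensembl gene identifier, and all 57 were among the 34519 identifiers common to the tables of both experiments. The list was split by function into 29 genes of DNA replication and 28 genes of mitosis. The replication genes comprised 12 genes of origin licensing and the replicative helicase, 9 of the replication fork, 4 of nucleotide supply and 4 regulators of the step from G1 to S. The mitosis genes comprised 10 of mitotic entry and exit, 7 coding for Aurora kinases and spindle checkpoint proteins, 8 for spindle motors and microtubule proteins and 3 for proteins of chromosome structure.

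Cells in G1 load the MCM helicase at origins, a step that needs Cdc6 and Cdt1, and E2F transcription factors raise the genes for licensing, the fork and nucleotide supply as S phase starts. The genes of mitosis follow later, when the MuvB core with B-MYB and FOXM1 acts on promoters that hold a CHR element, while in resting cells the DREAM complex and RB-family proteins keep both sets low. Macrophages from bone marrow divide under CSF1, and bacterial lipopolysaccharide (LPS), which signals through TLR4, is known to halt that division.

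Bulk RNA was sequenced from macrophages of male C57BL/6J mice aged 6 to 12 weeks, differentiated in 20% fetal bovine serum with 30% L-929 cell conditioned medium, the source of CSF1, and then held in a serum free macrophage medium. Compounds were given overnight, and LPS at 100 ng/ml was present for the last 3 h. Dex (dexamethasone, an agonist of the glucocorticoid receptor) was used at 1 µM, iBRD9 (an inhibitor of the BRD9 bromodomain) at 3 or 10 µM and dBRD9 (a degrader of BRD9) at 250 nM. BRD9 belongs to the chromatin remodeller known as non-canonical BAF. Which of the iBRD9 doses a sample received is not stated, and the doses of the 2 compounds differed. Experiment 1 had 3 libraries each of Dex + iBRD9 + LPS, Dex + dBRD9 + LPS, iBRD9 + LPS, dBRD9 + LPS, Dex + LPS, LPS alone and vehicle. Experiment 2 had 2 libraries each of Dex + dBRD9 + IFNγ + LPS, dBRD9 + IFNγ + LPS, Dex + IFNγ + LPS, IFNγ + LPS and vehicle, where IFNγ is interferon gamma, and no source used here gives its dose or timing. Every group was wild type and every group came from conditioned medium culture, so the controls share those conditions. Nothing in the labels says that libraries of 1 group came from separate animals or cultures, so the p-values measure the spread between these libraries, which may be technical.

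Libraries of experiment 1 held 19.3 to 29.9 M counts, and those of experiment 2 held 14.5 to 17.9 M. Levels are given as CPM, counts per M (mega) of the library total scaled by TMM, and levels of different genes are compared only as TPM, which also divides by exon length. A gene was called at an edgeR adjusted p under 0.05 over all genes tested. Of the 57 genes, 56 passed the filter on low counts in experiment 1 and 57 in experiment 2. The gene that failed was Fen1, the flap endonuclease that trims Okazaki fragments, with 67 counts in all of experiment 1. Exons of 12 of the 57 genes overlap those of other genes by over 10%, led by Fen1 (84.2%) and Gins2 (67.3%). In all 12 a gene on the other strand takes part, and in Mcm7 also miRNA genes on its own strand, and the strand setting of the counting is not given, so their values are uncertain. The first Dex + LPS and the first Dex + dBRD9 + LPS libraries stood apart by transcript length (Spearman rho -0.679 and -0.514 across genes, which are not independent, between length and the deviation from the group). Each count of called genes of experiment 1 below was also made without both. In experiment 2 this rho was -0.629 and 0.629 in vehicle libraries, 0.57 and -0.57 in Dex + IFNγ + LPS and -0.29 and 0.29 in IFNγ + LPS. It was at most 0.0835 in size in the groups with dBRD9. With 2 libraries a group the values mirror each other, so which library stood apart cannot be told. Each library of experiment 2 was left out in turn. Macrophage markers summed to 13370 to 28853 CPM in experiment 1 and 13561 to 16176 CPM in experiment 2 and were thus high in every library.

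Promoter windows are shown first, since the factors named above act through letters there. RefSeq windows (GRCm38.p6, 250 bases before to 50 after the start) were matched for 46 of the 57 genes, 24 of replication and 22 of mitosis. Mcm5 and Mcm6, subunits of the replicative helicase, are printed from the replication genes, and Ccnb2 (cyclin B2) and Cdc20 (the activator of the anaphase-promoting complex) from the mitosis genes. The windows lie at chr8:75109259-75109558 on the plus strand for Mcm5, chr1:128359656-128359955 on the minus strand for Mcm6, chr9:70421505-70421804 on the minus strand for Ccnb2 and chr4:118437294-118437593 on the minus strand for Cdc20. They are printed in the direction of transcription, with the searched letters in capitals.
Mcm5: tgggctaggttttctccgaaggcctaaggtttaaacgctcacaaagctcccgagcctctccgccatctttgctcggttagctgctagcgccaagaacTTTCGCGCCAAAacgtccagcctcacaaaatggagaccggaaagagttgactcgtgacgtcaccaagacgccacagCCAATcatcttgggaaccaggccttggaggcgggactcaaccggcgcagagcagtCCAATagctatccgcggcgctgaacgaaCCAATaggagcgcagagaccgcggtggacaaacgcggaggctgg
Mcm6: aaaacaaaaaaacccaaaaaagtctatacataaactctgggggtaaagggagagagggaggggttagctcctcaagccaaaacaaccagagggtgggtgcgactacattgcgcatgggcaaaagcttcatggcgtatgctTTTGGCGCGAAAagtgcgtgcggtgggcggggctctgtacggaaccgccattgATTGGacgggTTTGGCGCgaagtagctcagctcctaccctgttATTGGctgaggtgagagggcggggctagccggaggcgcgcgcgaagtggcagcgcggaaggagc
Ccnb2: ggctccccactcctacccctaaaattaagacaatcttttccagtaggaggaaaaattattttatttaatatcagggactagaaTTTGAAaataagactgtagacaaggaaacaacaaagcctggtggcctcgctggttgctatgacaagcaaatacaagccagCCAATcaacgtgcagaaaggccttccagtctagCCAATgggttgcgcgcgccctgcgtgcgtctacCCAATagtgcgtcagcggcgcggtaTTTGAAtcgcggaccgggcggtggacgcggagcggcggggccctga
Cdc20: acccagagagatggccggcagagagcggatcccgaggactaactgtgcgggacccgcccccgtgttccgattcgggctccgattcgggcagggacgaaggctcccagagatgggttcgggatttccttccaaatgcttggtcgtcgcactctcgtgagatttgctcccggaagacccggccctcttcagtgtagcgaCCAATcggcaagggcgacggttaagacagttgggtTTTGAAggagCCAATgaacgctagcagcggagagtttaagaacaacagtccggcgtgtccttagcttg
Capitals mark E2F letters (TTTCCCGC, TTTCGCGC, TTTGCCGC or TTTGGCGC), the CHR letters TTTGAA and the CCAAT box, each searched on both strands, so a match on the other strand appears as its reverse complement. In Mcm5 and in Mcm6 a pair of E2F matches on opposite strands overlaps and forms 1 run of capitals. E2F letters were found in 10 of 24 replication genes (41.7%), in 2 of 22 mitosis genes (9.09%) and in 704 of all 27025 genes with a window (2.6%). Among the origin licensing and helicase genes they were found in 6 of 9 (66.7%), and among those of the fork in 3 of 8 (37.5%). Of the G1/S regulators 1 of 3 had them (33.3%), and of the nucleotide supply genes 0 of 4. The printed Mcm5 and Mcm6 windows thus hold letters that most replication genes lacked. CHR letters were found in 4 of 24 replication genes (16.7%), in 15 of 22 mitosis genes (68.2%) and in 5466 of all genes (20.2%). The CCAAT box was common everywhere, with 14 of 24 replication genes (58.3%), 18 of 22 mitosis genes (81.8%) and 11096 of all genes (41.1%). A match describes letters only and shows no binding.

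**Figure D1:**
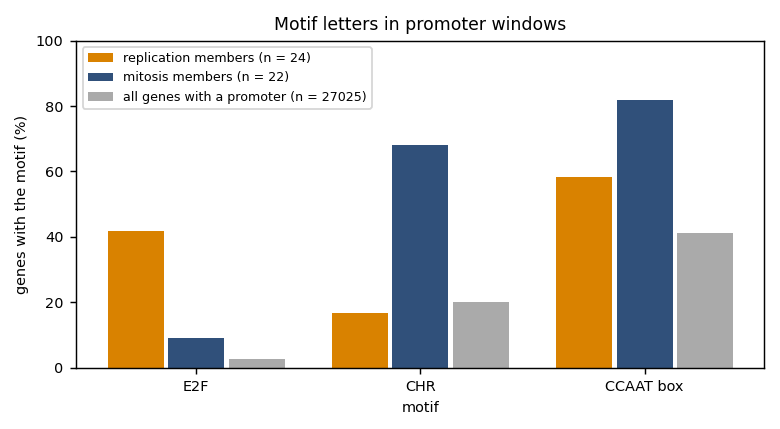
Percent of genes whose RefSeq promoter window holds E2F letters, CHR letters or a CCAAT box, for 24 replication genes, 22 mitosis genes and all 27025 genes with a window. E2F letters stand highest in the replication genes (41.7%) and CHR letters in the mitosis genes (68.2%).

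LPS alone was set against vehicle to ask what the stimulus did to the division genes of untreated macrophages. After LPS, 4 of the 56 tested genes rose and 50 fell, where 75.3% of all genes tested were called, 36.1% higher and 39.3% lower in either direction. The median log2 fold change was -0.86 in the replication genes and -0.90 in the mitosis genes, against -0.05 over all genes. Levels are first given for the gene of each role with the highest TPM.

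Mcm6 had 34.7, 34.2 and 33.2 CPM in LPS libraries, against 64.8, 68 and 73.3 CPM in vehicle libraries. Pcna, the sliding clamp of the replication fork, had 369, 386 and 381 CPM in LPS libraries, against 466, 469 and 458 CPM in vehicle libraries. Rrm2, the small subunit of ribonucleotide reductase, had 16.9, 17.3 and 15 CPM in LPS libraries, against 34.2, 36.9 and 41.5 CPM in vehicle libraries. These genes were lower in every LPS library than in any vehicle library, and their log2 fold changes were -1.01 ± 0.064 for Mcm6, -0.29 ± 0.055 for Pcna and -1.19 ± 0.11 for Rrm2 (SE). The transcription factor E2f1 had 18.2, 21.1 and 18.3 CPM in LPS libraries, against 41, 39.1 and 39.4 CPM in vehicle libraries. Its relative E2f2 was nearly lost, with 0.819, 0.226 and 0.863 CPM in LPS libraries, against 15.4, 15.9 and 13.3 CPM in vehicle libraries, and fell by 4.62 ± 0.25 on the log2 scale (adjusted p = 9.7e-14), the largest fall among the 57 genes. Cdc6, the licensing ATPase, fell by 2.99 ± 0.20 and Ccne2 (cyclin E2) by 2.07 ± 0.18.

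Among mitosis genes, Ccnb2 had 22, 20.4 and 20.3 CPM in LPS libraries, against 25.8, 29 and 27.9 CPM in vehicle libraries. Birc5 (survivin, of the chromosomal passenger complex) had 14, 14.9 and 15.7 CPM in LPS libraries, against 22.1, 23.5 and 21.9 CPM in vehicle libraries. Tpx2, which activates Aurora A on the spindle, had 29.1, 25.6 and 24.6 CPM in LPS libraries, against 34.8, 40.7 and 39.5 CPM in vehicle libraries. All 3 fell, by 0.40 ± 0.099, 0.60 ± 0.12 and 0.54 ± 0.096 on the log2 scale, without overlap between the groups. Kif23, a kinesin of the central spindle, fell furthest among mitosis genes, by 2.26 ± 0.11.

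Against this direction, Mki67, the proliferation marker Ki-67 that coats mitotic chromosomes, had 228, 223 and 226 CPM in LPS libraries, against 115, 131 and 127 CPM in vehicle libraries. It rose by 0.86 ± 0.092 on the log2 scale (1.81-fold, adjusted p = 1.8e-08). Mad2l1, a spindle checkpoint protein, rose by 0.70 ± 0.073 (adjusted p = 1.2e-08), with 31.6, 33.2 and 31.4 CPM in LPS libraries, against 20, 20.9 and 18.4 CPM in vehicle libraries. The other two that rose, Ccne1 (cyclin E1, 0.38 ± 0.11) and Tyms (thymidylate synthase, 0.28 ± 0.099), depended on the scaling. The 2 genes not called were Rfc3, of the clamp loader, at 0.13 and Ube2c, an enzyme of the anaphase-promoting complex, at 0.00.

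The vehicle libraries had TMM factors of 1.275 to 1.286. Scaled by library totals alone, the all-gene median was -0.56 and that of the set -1.38, with 2421 genes called higher and 8125 lower in place of 4567 and 4971. Under that scaling 2 of the set rose (Mki67 at 0.34 and Mad2l1 at 0.18) and 53 fell, and Tyms was -0.24, Ccne1 -0.14 and Rfc3 -0.38. In bulk samples, fewer cycling cells and less RNA per cell cannot be told apart, here or in any comparison below.

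Markers of other cells moved with LPS as well. Dendritic cell markers summed to 6.87 to 7.73 CPM in LPS libraries, against 0.748 to 1.13 CPM in vehicle libraries, almost all from Zbtb46 and Xcr1 in LPS libraries, with Cd209a at 0. Stromal markers summed to 29.8 to 32.9 CPM in LPS libraries, against 0.378 to 0.546 CPM in vehicle libraries, almost all from Pdgfrb, with Col3a1 at 0. Neutrophil and myeloid progenitor markers summed to 12.3 to 16.1 CPM in LPS libraries, against 7.43 to 9.61 CPM in vehicle libraries, and 3 of the 4 tested rose. Those of T and NK cells, mostly Cd4, summed to 3.5 to 3.94 CPM in LPS libraries, against 4.89 to 5.86 CPM in vehicle libraries, with Cd3e and Cd3g at 0, and stem and progenitor markers to 2 to 2.7 CPM, against 2.8 to 3.32 CPM. B cell, erythroid and mast cell markers each summed to at most 0.947 CPM in any library of experiment 1. The part of these cells in the fall of the set was not tested.

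**Figure D2:**
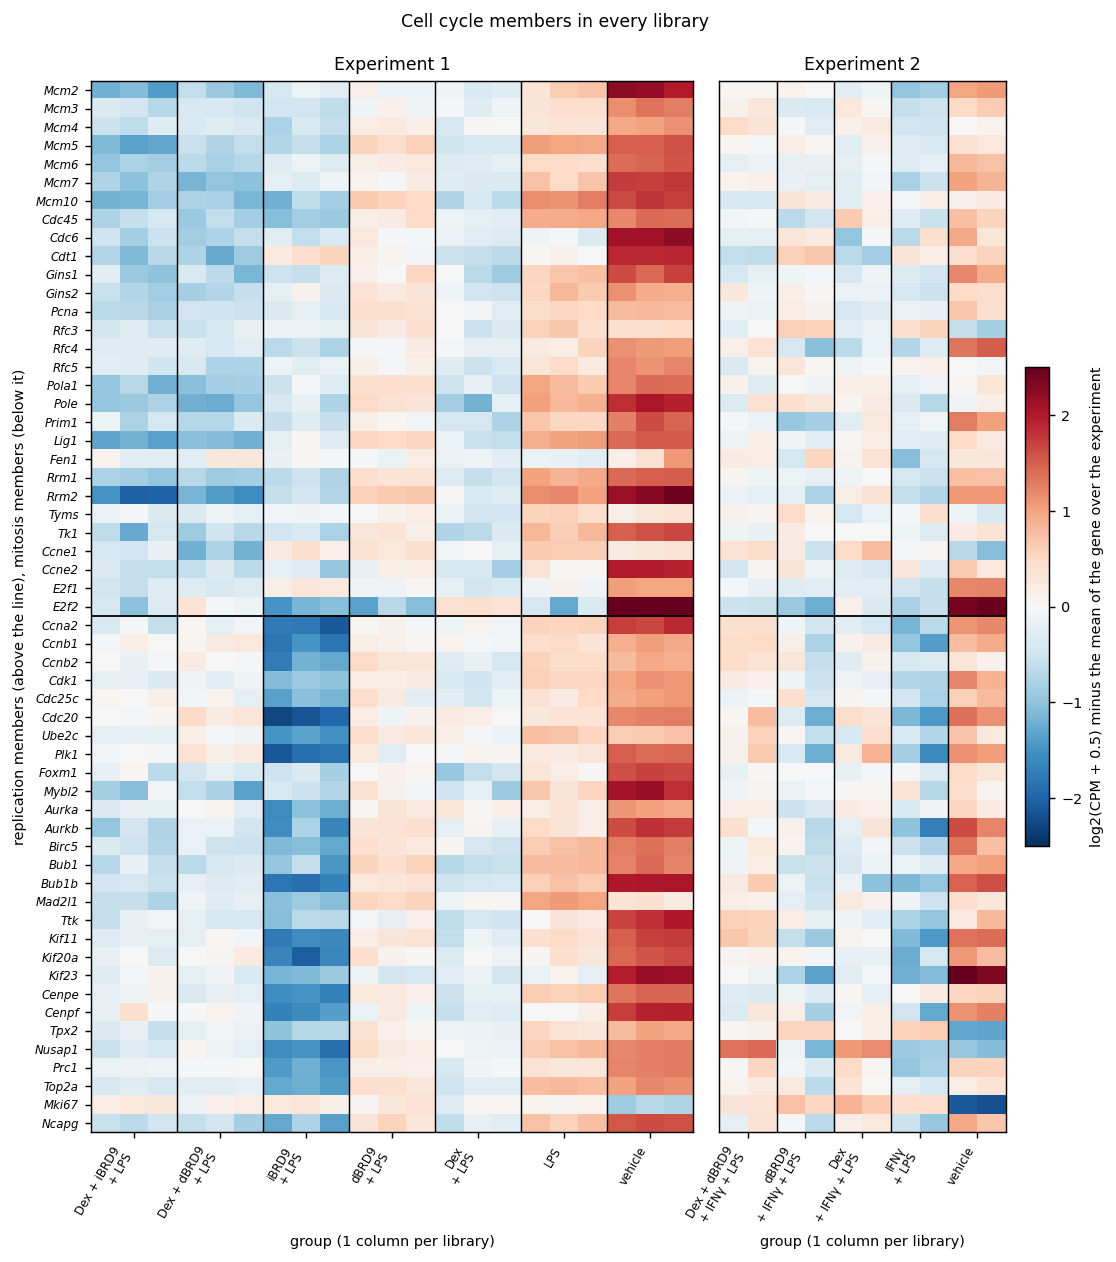
Level of each of the 57 genes (one line per gene, replication genes above mitosis genes) in each library of both experiments, as log2(CPM + 0.5) minus the gene's mean over its experiment. Vehicle libraries are highest for 26 of 29 replication genes and 26 of 28 mitosis genes in experiment 1, and iBRD9 + LPS libraries are lowest for 25 of the mitosis genes.

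iBRD9 + LPS was compared with LPS to see what the bromodomain inhibitor did to the same genes under the stimulus. In iBRD9 + LPS libraries 2 of the 56 tested genes rose and 52 fell, where 61.9% of all genes tested were called, 31.4% higher and 30.5% lower. The classes moved to different depths: the median log2 fold change was -2.04 in the mitosis genes and -0.94 in the replication genes, against 0.01 over all genes. Of 28 mitosis genes 27 fell, and 26 of these were at least 2-fold lower, while 25 of 28 tested replication genes fell and 13 were at least 2-fold lower. The share of all genes at this 2-fold cut was not counted.

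Cdc20 had 1.46, 1.62 and 1.92 CPM in iBRD9 + LPS libraries, against 11, 11.4 and 11.4 CPM in LPS libraries. It fell by 2.76 ± 0.12 on the log2 scale (6.78-fold, adjusted p = 7.4e-15), the largest fall of the set. Bub1b, the checkpoint kinase BubR1, had 1.8, 1.66 and 1.97 CPM in iBRD9 + LPS libraries, against 11.6, 12.8 and 11.9 CPM in LPS libraries (log2 fold change -2.74 ± 0.094). Ccna2 (cyclin A2) had 2.27, 2.24 and 1.71 CPM in iBRD9 + LPS libraries, against 13.4, 13.3 and 13.4 CPM in LPS libraries (log2 fold change -2.68 ± 0.14). The groups were wide apart for all of these. Ccnb2 had 4, 6.17 and 5.73 CPM in iBRD9 + LPS libraries, against 22, 20.4 and 20.3 CPM in LPS libraries, a fall of 1.99 ± 0.12 (3.98-fold). Birc5 had 3.83, 3.94 and 3.33 CPM in iBRD9 + LPS libraries, against 14, 14.9 and 15.7 CPM in LPS libraries. Tpx2 had 9.66, 11.9 and 11.9 CPM in iBRD9 + LPS libraries, against 29.1, 25.6 and 24.6 CPM in LPS libraries. By role, the median log2 fold change was -2.22 for mitotic entry and exit, -1.90 for Aurora kinases and the spindle checkpoint and -2.06 for spindle motors and microtubule proteins. Mki67 alone among mitosis genes was not called, with 257, 263 and 237 CPM in iBRD9 + LPS libraries, against 228, 223 and 226 CPM in LPS libraries (log2 fold change 0.16 ± 0.091). Mki67 was called higher at 0.29 with library totals alone, at 0.17 with no filter on low counts, and at 0.16 with only the compared groups fitted or without the 2 libraries that stood apart.

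Replication genes fell less evenly. Mcm10, which joins the helicase to the polymerase, had 1.12, 1.91 and 1.58 CPM in iBRD9 + LPS libraries, against 7.87, 7.69 and 8.63 CPM in LPS libraries (log2 fold change -2.40 ± 0.15). Cdc45, a part of the active helicase, had 0.915, 1.16 and 1.07 CPM in iBRD9 + LPS libraries, against 5.18, 5.13 and 5.28 CPM in LPS libraries (log2 fold change -2.31 ± 0.16). Rrm2 had 4.61, 5.05 and 4.15 CPM in iBRD9 + LPS libraries, against 16.9, 17.3 and 15 CPM in LPS libraries (log2 fold change -1.84 ± 0.13). These 3 fell about as far as the mitosis genes. Mcm6 had 19.7, 22.3 and 19.4 CPM in iBRD9 + LPS libraries, against 34.7, 34.2 and 33.2 CPM in LPS libraries, a smaller fall of 0.74 ± 0.068. Pcna had 209, 226 and 204 CPM in iBRD9 + LPS libraries, against 369, 386 and 381 CPM in LPS libraries, a fall of 0.83 ± 0.056. Some regulators went the other way. The licensing factor Cdt1 rose by 0.36 ± 0.11, with 11.2, 12.7 and 14.1 CPM in iBRD9 + LPS libraries, against 9.78, 10.2 and 9.49 CPM in LPS libraries. E2f1 rose by 0.25 ± 0.081, with 21.6, 24.3 and 23.1 CPM in iBRD9 + LPS libraries, against 18.2, 21.1 and 18.3 CPM in LPS libraries. Cdc6 was not called (-0.49).

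Both calls, though not the direction, depended on single libraries. Without the third iBRD9 + LPS library Cdt1 was at 0.28 (adjusted p = 0.05), and without the first LPS library E2f1 was at 0.21 (adjusted p = 0.057). Scaled by library totals alone, the all-gene median was 0.14 and that of the set -1.39, with 5193 of all genes called higher and 3032 lower in place of 3979 and 3865.

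Genes of the same processes outside the set were examined with a second list. Of 39 other mitosis genes, 39 fell in iBRD9 + LPS libraries, led by Espl1 (separase) at -3.34, Cep55, which acts at abscission, at -2.92, Kif18a, a kinesin that aligns chromosomes, at -2.68 and Hmmr, a spindle protein, at -2.53 on the log2 scale. Of 35 other replication genes, 5 rose and 15 fell, where 31.4% of all genes tested were called higher and 30.5% lower. Timeless, of the fork protection complex, was at -2.59 and Ticrr, which starts origins, at -2.28, while Pole2, a polymerase epsilon subunit, was at 1.10 and Slbp, which binds histone messages, at 0.94.

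Markers of other cells moved too. Markers of neutrophils and myeloid progenitors summed to 0.556 to 1.36 CPM in iBRD9 + LPS libraries, against 12.3 to 16.1 CPM in LPS libraries, and 4 of the 10 passed the filter, all lower. The sum came from Ngp, S100a8, Ltf and Camp, while Mpo had no count in either group and Elane and Ms4a3 at most 2 in a library. Stem and progenitor markers summed to 0.898 to 1.42 CPM in iBRD9 + LPS libraries, against 2 to 2.7 CPM in LPS libraries. Stromal markers summed to 0.855 to 1.93 CPM in iBRD9 + LPS libraries, against 29.8 to 32.9 CPM in LPS libraries, almost all from Pdgfrb, with Col1a2 and Col3a1 at 0. Dendritic cell markers summed to 1.12 to 1.45 CPM in iBRD9 + LPS libraries, against 6.87 to 7.73 CPM in LPS libraries. Whether these cells had a part in the fall of the mitosis genes was not tested.

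Dex + LPS was set against LPS to ask what the glucocorticoid did. Here 1 gene rose and 49 fell of 56, where 55.4% of all genes tested were called, 27.9% higher and 27.5% lower, and the classes lay close together, with a median log2 fold change of -0.96 in replication genes and -0.82 in mitosis genes, against 0.01 over all genes. Mcm5 had 11.5, 11.9 and 12 CPM in Dex + LPS libraries, against 34.6, 32.9 and 32.7 CPM in LPS libraries, a fall of 1.50 ± 0.073 on the log2 scale. Mcm10 had 1.73, 2.25 and 1.83 CPM in Dex + LPS libraries, against 7.87, 7.69 and 8.63 CPM in LPS libraries (log2 fold change -2.06 ± 0.15). Rrm2 had 7.46, 5.45 and 5.8 CPM in Dex + LPS libraries, against 16.9, 17.3 and 15 CPM in LPS libraries (log2 fold change -1.39 ± 0.13). All Dex + LPS libraries were below all LPS libraries for these genes. Among mitosis genes Bub1, a checkpoint kinase, fell by 1.52, Mybl2 (B-MYB) by 1.37 and Ncapg, a condensin subunit, by 1.18. E2f2 rose, by 1.55 ± 0.34, with 1.78, 1.81 and 1.74 CPM in Dex + LPS libraries, against 0.819, 0.226 and 0.863 CPM in LPS libraries. Cdc20 was not called, with 10.7, 10.1 and 9 CPM in Dex + LPS libraries, against 11, 11.4 and 11.4 CPM in LPS libraries. Plk1, the polo-like kinase (-0.23), Aurka, Aurora A (-0.05), Kif23 (-0.23) and Mki67 (-0.15) were not called either. Without the 2 libraries that stood apart, 51 genes were called.

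With Dex, too, markers of other cells moved. Neutrophil and myeloid progenitor markers summed to 8.5 to 10.6 CPM in Dex + LPS libraries, against 12.3 to 16.1 CPM in LPS libraries, and 2 of the 4 tested fell. The dendritic cell sum was 3.15 to 4.62 CPM in Dex + LPS libraries, against 6.87 to 7.73 CPM in LPS libraries, and the T and NK cell sum 1.14 to 1.47 CPM in Dex + LPS libraries, against 3.5 to 3.94 CPM in LPS libraries, with Cd3e and Cd3g at 0 in both. Stromal markers, almost all Pdgfrb, were higher, at 37.8 to 47.5 CPM in Dex + LPS libraries, against 29.8 to 32.9 CPM in LPS libraries, and stem and progenitor sums overlapped. The part of these cells in the result was not tested.

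**Figure D3:**
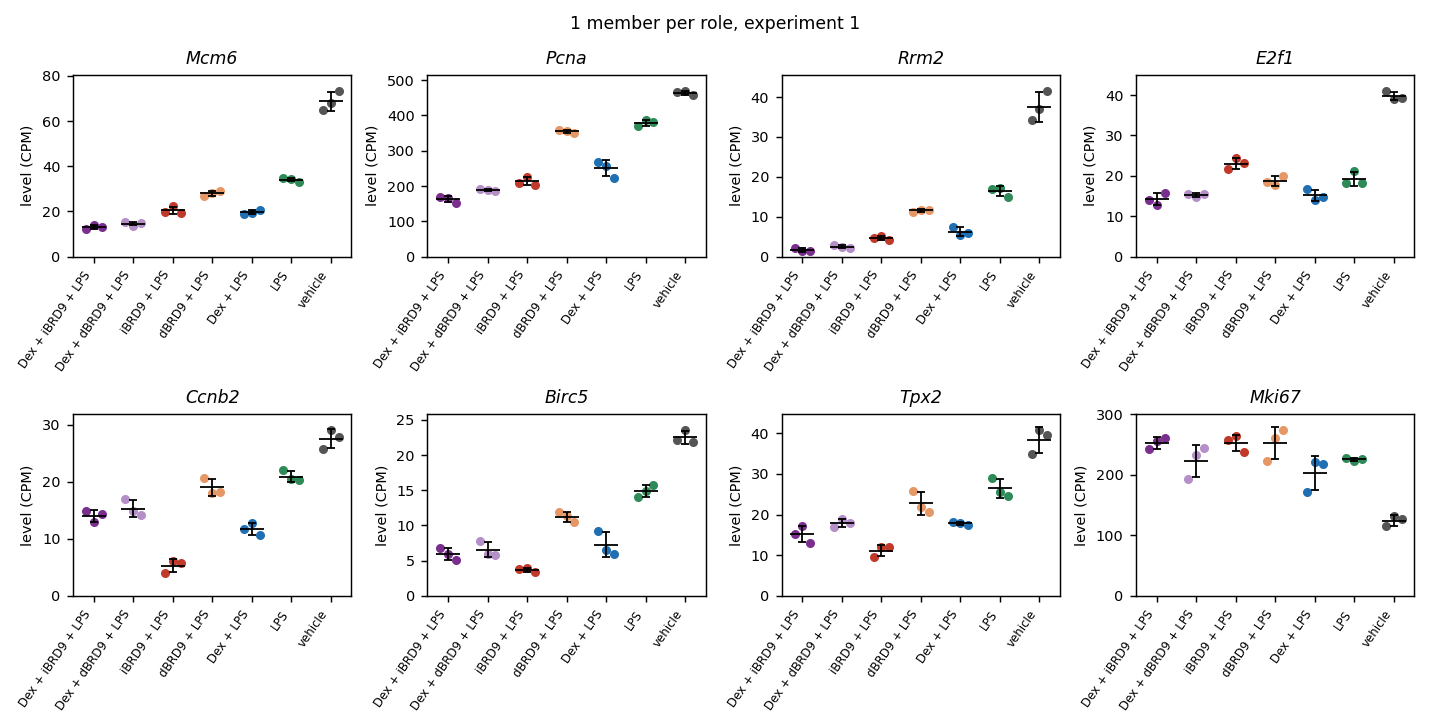
Level (CPM) of the gene with the highest TPM in each of the 8 roles, in each library of experiment 1, with the group mean and SD. In experiment 1 Ccnb2, Birc5 and Tpx2 are lowest in iBRD9 + LPS libraries, while Mcm6, Pcna and Rrm2 are lowest in Dex + iBRD9 + LPS libraries.

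dBRD9 + LPS was compared with LPS as the degrader counterpart. In dBRD9 + LPS libraries no gene of the 56 rose and 26 fell, 16 of replication and 10 of mitosis, where 16.6% of all genes tested were called, 6.64% higher and 9.97% lower. The median log2 fold change was -0.44 in replication genes and -0.28 in mitosis genes, against 0.00 over all genes. Cdc45 had 2.83, 2.92 and 3.62 CPM in dBRD9 + LPS libraries, against 5.18, 5.13 and 5.28 CPM in LPS libraries, and fell furthest, by 0.73 ± 0.13. Mcm2 fell by 0.68 ± 0.14 and Mcm10 by 0.65 ± 0.13. Ccna2 had 9.2, 9.68 and 8.65 CPM in dBRD9 + LPS libraries, against 13.4, 13.3 and 13.4 CPM in LPS libraries, a fall of 0.54 ± 0.11. Mad2l1 fell by 0.49 ± 0.074 and Nusap1, a microtubule bundler, by 0.45 ± 0.10. Cdc20 had 10.3, 8.31 and 9.66 CPM in dBRD9 + LPS libraries, against 11, 11.4 and 11.4 CPM in LPS libraries, and was not called (-0.26 ± 0.095). Ccnb2 had 20.7, 18.1 and 18.2 CPM in dBRD9 + LPS libraries, against 22, 20.4 and 20.3 CPM in LPS libraries, and overlapped (-0.14). Of the other mitosis genes 11 of 39 fell and none rose. Leaving out 1 library gave 19 to 31 called genes. The stromal sum, almost all Pdgfrb, was 10.8 to 12.1 CPM in dBRD9 + LPS libraries, against 29.8 to 32.9 CPM in LPS libraries, and its part in the result was not tested, while the neutrophil, stem, dendritic and T and NK cell sums overlapped.

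The compounds were then compared directly, once without and once with Dex. Their doses differed, and the comparisons of each with LPS share the LPS libraries. In iBRD9 + LPS against dBRD9 + LPS libraries, 2 genes were higher and 49 lower of 56, where 55.6% of all genes tested were called, 28.3% higher and 27.2% lower, with a median log2 fold change of -1.80 in mitosis genes and -0.70 in replication genes. Cdc20 was 2.50 ± 0.12 lower on the log2 scale, Bub1b 2.38 lower by the same measure and Cdc25c, the phosphatase that switches on CDK1, 2.30 lower. The 5 genes that missed the threshold, with the 95% interval of the difference, were Ccne1 at -0.08 (-0.32 to 0.17), E2f2 at -0.60 (-1.80 to 0.60), Mcm2 at -0.25 (-0.57 to 0.07), Mki67 at 0.00 (-0.20 to 0.19) and Tyms at -0.17 (-0.40 to 0.06). In these libraries too the neutrophil and myeloid progenitor sum differed, at 0.556 to 1.36 CPM in iBRD9 + LPS libraries, against 12.8 to 13.1 CPM in dBRD9 + LPS libraries, as did the stromal sum, at 0.855 to 1.93 CPM, against 10.8 to 12.1 CPM, and the part of either was not tested.

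**Figure D4:**
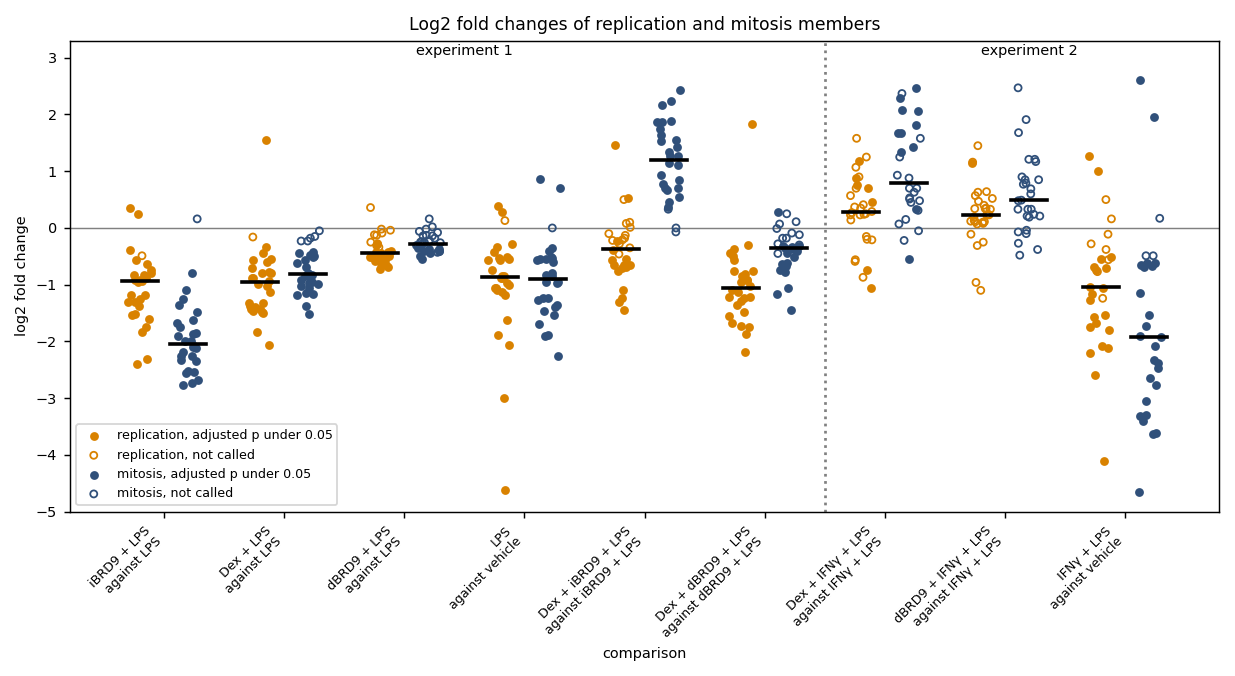
Log2 fold change of each tested gene, split into replication and mitosis genes, in the comparisons of both experiments, each point a gene with the median marked. In iBRD9 + LPS against LPS the mitosis median is -2.04 and the replication median -0.94, and in Dex + iBRD9 + LPS against iBRD9 + LPS they are 1.20 and -0.37.

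The inhibitor was then tested with Dex present. In Dex + iBRD9 + LPS against Dex + LPS libraries, 4 genes rose and 19 fell of 56, where 34.7% of all genes tested were called, 16.7% higher and 18.0% lower. The 9 mitosis genes called of 28 are a share close to that of all genes, and the median log2 fold change was -0.02 in mitosis genes and -0.41 in replication genes. Rrm2 had 2.25, 1.39 and 1.41 CPM in Dex + iBRD9 + LPS libraries, against 7.46, 5.45 and 5.8 CPM in Dex + LPS libraries, a fall of 1.90 ± 0.18. Mcm5 had 7.36, 6.23 and 6.37 CPM in Dex + iBRD9 + LPS libraries, against 11.5, 11.9 and 12 CPM in Dex + LPS libraries. Mcm2 fell by 1.15 and E2f2 by 1.36. The 4 that rose were all of mitosis: Cenpf and Cenpe, proteins of the kinetochore, at 0.50 and 0.29, the transcription factor Foxm1 at 0.45 and Mki67 at 0.32. Of the 9 mitosis genes called, 5 were called without the first Dex + LPS library and 5 without the first Dex + iBRD9 + LPS library, and Cenpf, Cenpe and Foxm1 lost their calls without the 2 libraries that stood apart, which left 19 genes called. In Dex + dBRD9 + LPS against Dex + LPS libraries, 1 gene rose (Ccnb2, 0.39 ± 0.11) and 13 fell, all of replication, where 15.8% of all genes tested were called, 6.51% higher and 9.28% lower. Rrm2 had 2.99, 2.46 and 2.11 CPM in Dex + dBRD9 + LPS libraries, against 7.46, 5.45 and 5.8 CPM in Dex + LPS libraries, a fall of 1.30 ± 0.16, and Ccne1 fell by 1.07. With library totals alone the split was 4 higher and 12 lower, and without the 2 libraries that stood apart 12 genes were called. The stromal sum was 15.8 to 17.2 CPM in Dex + iBRD9 + LPS libraries and 14.8 to 17 CPM in Dex + dBRD9 + LPS libraries, against 37.8 to 47.5 CPM in Dex + LPS libraries, and the neutrophil and myeloid progenitor sum 3.7 to 5.45 CPM and 9.75 to 11.5 CPM, against 8.5 to 10.6 CPM, and their part was not tested. Ccnb2 was at 0.31 (adjusted p = 0.097) without the first Dex + dBRD9 + LPS library and at 0.33 (adjusted p = 0.074) without the third Dex + LPS library.

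Read the other way, cells given both Dex and iBRD9 were compared with cells given iBRD9 without Dex, all under LPS. In Dex + iBRD9 + LPS against iBRD9 + LPS libraries the classes parted: 25 of 28 mitosis genes rose and none fell, while 2 of 28 tested replication genes rose and 14 fell, where 49.8% of all genes tested were called, 25.7% higher and 24.1% lower. The median log2 fold change was 1.20 in mitosis genes and -0.37 in replication genes. Cdc20 had 8.92, 8.65 and 9.37 CPM in Dex + iBRD9 + LPS libraries, against 1.46, 1.62 and 1.92 CPM in iBRD9 + LPS libraries, a rise of 2.44 ± 0.13 on the log2 scale (5.42-fold). Plk1 had 6.81, 7.21 and 6.88 CPM in Dex + iBRD9 + LPS libraries, against 1.25, 1.57 and 1.67 CPM in iBRD9 + LPS libraries, a rise of 2.23 ± 0.15. Ccnb2 had 14.8, 12.9 and 14.4 CPM in Dex + iBRD9 + LPS libraries, against 4, 6.17 and 5.73 CPM in iBRD9 + LPS libraries, a rise of 1.42 ± 0.12. None of these groups overlapped. Rrm2 had 2.25, 1.39 and 1.41 CPM in Dex + iBRD9 + LPS libraries, against 4.61, 5.05 and 4.15 CPM in iBRD9 + LPS libraries, a fall of 1.45 ± 0.18. Cdt1 had 5.46, 4.12 and 5.62 CPM in Dex + iBRD9 + LPS libraries, against 11.2, 12.7 and 14.1 CPM in iBRD9 + LPS libraries, a fall of 1.31 ± 0.12, and Lig1, the ligase of Okazaki fragments, fell by 1.23. The replication genes that rose were Cdc45 at 0.52 and E2f2 at 1.46, and the mitosis genes not called were Foxm1 (0.33), Mybl2 (-0.07) and Mki67 (0.00). Cdc45 was not called by limma voom or DESeq2, and E2f2 lost its call without the first or the third Dex + iBRD9 + LPS library or the first iBRD9 + LPS library. Of the other mitosis genes 31 of 39 rose and none fell, and of the other replication genes 7 rose and 10 fell. Neutrophil and myeloid progenitor markers summed to 3.7 to 5.45 CPM in Dex + iBRD9 + LPS libraries, against 0.556 to 1.36 CPM in iBRD9 + LPS libraries, and 2 of the 4 tested rose, with Mpo at 0 in both. Stromal markers, almost all Pdgfrb, summed to 15.8 to 17.2 CPM in Dex + iBRD9 + LPS libraries, against 0.855 to 1.93 CPM in iBRD9 + LPS libraries. The stem and progenitor sum, mostly Flt3 with Dex and mostly Cd34 without, was 2.66 to 3.91 CPM in Dex + iBRD9 + LPS libraries, against 0.898 to 1.42 CPM in iBRD9 + LPS libraries, with Mecom at 0. Dendritic cell markers summed to 2.06 to 2.7 CPM in Dex + iBRD9 + LPS libraries, against 1.12 to 1.45 CPM in iBRD9 + LPS libraries, and T and NK cell markers to 0.601 to 1.24 CPM, against 2.75 to 4.1 CPM. The part of these cells in the rise of the mitosis genes, or in the interaction given below, was not tested.

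In Dex + dBRD9 + LPS against dBRD9 + LPS libraries, 2 genes rose and 43 fell of 56, where 55.8% of all genes tested were called, 29.1% higher and 26.7% lower, with medians of -1.06 in replication genes and -0.35 in mitosis genes. Rrm2 had 2.99, 2.46 and 2.11 CPM in Dex + dBRD9 + LPS libraries, against 11.2, 11.7 and 11.8 CPM in dBRD9 + LPS libraries, a fall of 2.18 ± 0.15. Pole, the leading-strand polymerase, fell by 1.87 and Mcm10 by 1.75, and among mitosis genes Mybl2 fell by 1.44, Ncapg by 1.16 and Bub1 by 1.06. The 2 that rose were E2f2 at 1.83 and Cdc20 at 0.29, and Cdc20 was at 0.21 without the first Dex + dBRD9 + LPS library (adjusted p = 0.086) or the second dBRD9 + LPS library (adjusted p = 0.091). Without the 2 libraries that stood apart, 44 genes were called. The dendritic cell sum was 2.5 to 2.87 CPM in Dex + dBRD9 + LPS libraries, against 6.38 to 8.81 CPM in dBRD9 + LPS libraries, the neutrophil and myeloid progenitor sum 9.75 to 11.5 CPM, against 12.8 to 13.1 CPM, and the stromal sum 14.8 to 17 CPM, against 10.8 to 12.1 CPM, and their part was not tested.

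The difference between the compound's effect with and without Dex was tested as an interaction. For iBRD9 this was called higher in 42 genes and lower in 2 of 56, where 33.2% of all genes tested were called, 17.3% higher and 16.0% lower. All 28 mitosis genes except Mki67 (0.15) were called higher, each of the 27 by at least 2-fold, with a class median of 2.01 on the log2 scale, and 15 replication genes were higher and 2 lower, with a class median of 0.56. The share of all genes at the 2-fold cut was not counted here either. Cdc25c had the largest difference (3.00), with 1.45, 1.39 and 1.59 CPM in Dex + iBRD9 + LPS libraries, 0.237, 0.414 and 0.342 CPM in iBRD9 + LPS libraries, 1.08, 0.88 and 1.23 CPM in Dex + LPS libraries and 1.96, 1.7 and 2.16 CPM in LPS libraries. Bub1b (2.69 ± 0.13), Cdc20 (2.62) and Cenpe (2.62) came next, and Cdt1 (-0.61) and E2f1 (-0.36) were the 2 lower, of which E2f1 was at -0.28 (adjusted p = 0.061) without the 2 libraries that stood apart. E2f1 also lost its call without the second Dex + iBRD9 + LPS (adjusted p = 0.083), the first Dex + LPS (0.065), the second iBRD9 + LPS (0.062), the first LPS (0.074) or the third LPS library (0.069). Of 39 other mitosis genes, 39 were called higher, against 6 higher and 2 lower of the other replication genes. Without the 2 libraries that stood apart, 46 of the set were called. For dBRD9 the interaction was called higher in 5 genes and lower in 3, where 3.39% of all genes tested were called, 1.82% higher and 1.57% lower. Without the third Dex + dBRD9 + LPS library it was called in 3, without the second dBRD9 + LPS or the second Dex + dBRD9 + LPS library in 4, without the first or the third LPS library in 5 and without the 2 libraries that stood apart in 7.

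Under Dex the compounds were compared in the same way. In Dex + iBRD9 + LPS against Dex + dBRD9 + LPS libraries 6 of 56 were called, where 16.0% of all genes tested were called, 6.93% higher and 9.04% lower. Ccne1 was higher (0.79), and Mcm5 (-0.63), Mad2l1 (-0.48), Nusap1 (-0.38), Cdc20 (-0.36) and Pcna (-0.22) were lower. Without the first Dex + dBRD9 + LPS library Cdc20 was at -0.28 (adjusted p = 0.083) and Nusap1 at -0.28 (adjusted p = 0.16), and without the third Dex + iBRD9 + LPS library Pcna was at -0.18 (adjusted p = 0.068) and Nusap1 at -0.38 (adjusted p = 0.08). Nusap1 also lost its call without the first Dex + iBRD9 + LPS library (-0.32, adjusted p = 0.11). The 95% intervals of the other 50 genes lay between -1.72 and 1.26, so a lack of calls does not show that the compounds acted alike.

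Levels were also summed over each class in experiment 1, as CPM without scaling by exon length, so long transcripts weigh more. The replication genes summed to 286 to 305 CPM in Dex + iBRD9 + LPS libraries, 322 to 334 CPM in Dex + dBRD9 + LPS, 381 to 424 CPM in iBRD9 + LPS, 621 to 629 CPM in dBRD9 + LPS, 400 to 453 CPM in Dex + LPS, 727 to 741 CPM in LPS and 1087 to 1116 CPM in vehicle libraries. The mitosis genes summed to 479 to 512 CPM in Dex + iBRD9 + LPS libraries, 470 to 512 CPM in Dex + dBRD9 + LPS, 344 to 386 CPM in iBRD9 + LPS, 592 to 618 CPM in dBRD9 + LPS, 418 to 482 CPM in Dex + LPS, 659 to 672 CPM in LPS and 808 to 884 CPM in vehicle libraries. In the replication sum iBRD9 + LPS overlapped Dex + LPS, and in the mitosis sum Dex + iBRD9 + LPS, Dex + dBRD9 + LPS and Dex + LPS overlapped, with iBRD9 + LPS below all. Both sums were carried by 1 gene each: Pcna gave 41 to 60.3% of the replication sum over all libraries, and Mki67 gave 68.2 to 70.8% of the mitosis sum in iBRD9 + LPS libraries, against 33.3 to 34.3% in LPS and 14.2 to 14.8% in vehicle libraries. Without Mki67 the mitosis sum was 237 to 257 CPM in Dex + iBRD9 + LPS libraries, 268 to 277 CPM in Dex + dBRD9 + LPS, 106 to 123 CPM in iBRD9 + LPS, 344 to 369 CPM in dBRD9 + LPS, 247 to 261 CPM in Dex + LPS, 433 to 447 CPM in LPS and 692 to 752 CPM in vehicle libraries, so that iBRD9 + LPS stood lower still. Without Pcna the replication sum was 128 to 138 CPM in Dex + iBRD9 + LPS, 177 to 198 CPM in iBRD9 + LPS, 170 to 186 CPM in Dex + LPS and 352 to 358 CPM in LPS libraries. The iBRD9 + LPS and Dex + LPS libraries still overlapped, and Dex + iBRD9 + LPS then overlapped Dex + dBRD9 + LPS, at 137 to 142 CPM. Single replication genes had their lowest mean in Dex + iBRD9 + LPS (14 of 29), Dex + dBRD9 + LPS (7) or iBRD9 + LPS (5), and mitosis genes in iBRD9 + LPS (25 of 28). Length-scaled means over experiment 1 spread widely within the set: Pcna had 395 TPM, Mki67 68.7, Ccnb2 35.3, E2f1 22.1, Mcm6 20.8, Tpx2 15.2, Rrm2 14.7 and Birc5 10.2 TPM.

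Regulators that act before S phase were followed with fixed lists. Cdkn1a (p21, a CDK inhibitor) had 5526, 5578 and 5275 CPM in LPS libraries, against 320, 324 and 313 CPM in vehicle libraries, a log2 fold change of 4.10 ± 0.053. Ccnd2 (cyclin D2) had 165, 159 and 169 CPM in LPS libraries, against 5.1, 4.19 and 4.56 CPM in vehicle libraries (5.16 ± 0.094). Ccnd1 (cyclin D1) had 52.4, 52.9 and 58.1 CPM in LPS libraries, against 174, 176 and 167 CPM in vehicle libraries, and fell by 1.66. These D cyclins moved in opposite directions with LPS, also with library totals alone. The repressor E2f7 was at most 1.73 CPM in every LPS-treated group, against 5.97, 6.32 and 6.05 CPM in vehicle libraries, while its relative E2f8 had 70, 68.5 and 72.6 CPM in LPS libraries, against 12.4, 13.6 and 13.6 CPM in vehicle libraries.

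Of 7 CDK inhibitors listed, 5 fell in iBRD9 + LPS against LPS libraries and none was called higher. Of all genes tested 61.9% were called there, 31.4% higher and 30.5% lower. Cdkn1c (p57) had 8.71, 8.7 and 8.72 CPM in iBRD9 + LPS libraries, against 6.59, 7.24 and 6.52 CPM in LPS libraries, and was at 0.36 (adjusted p = 0.055). Cdkn1c was called higher with library totals alone (0.49), with no filter, with a replicate block, by limma voom, with only the compared groups fitted and without the 2 libraries that stood apart (adjusted p = 0.0044 to 0.049). Cdkn1b (p27) had 23.7, 24.5 and 24.1 CPM in iBRD9 + LPS libraries, against 46.1, 47.6 and 46.7 CPM in LPS libraries, and fell by 0.96. Cdkn1a had 3373, 3487 and 3334 CPM in iBRD9 + LPS libraries, against 5526, 5578 and 5275 CPM in LPS libraries, and fell by 0.68. Ccnd2 had 34.8, 40.2 and 35.7 CPM in iBRD9 + LPS libraries, against 165, 159 and 169 CPM in LPS libraries, and fell by 2.15. Cyclin D2, Cdkn1a and Cdkn1b were thus lower in the same libraries as the mitosis genes, and E2f8 fell by 3.49, with 5.63, 7.21 and 6.03 CPM in iBRD9 + LPS libraries. Myc had 23.4, 21.8 and 27 CPM in iBRD9 + LPS libraries, against 16.7, 14.6 and 13 CPM in LPS libraries, and rose by 0.70. With Dex, Ccnd2 had 14.9, 15 and 15 CPM in Dex + LPS libraries, against 165, 159 and 169 CPM in LPS libraries, and Cdkn1c had 2.38, 1.93 and 1.37 CPM in Dex + LPS libraries, against 6.59, 7.24 and 6.52 CPM in LPS libraries. Cdkn1b had 49.6, 47.8 and 52.1 CPM in Dex + iBRD9 + LPS libraries, against 23.7, 24.5 and 24.1 CPM in iBRD9 + LPS libraries, a rise of 1.05. Myc had 5.71, 6.64 and 5.67 CPM in Dex + iBRD9 + LPS libraries, against 23.4, 21.8 and 27 CPM in iBRD9 + LPS libraries, below in every library. In dBRD9 + LPS against LPS libraries Ccnd2 was not called (-0.03), and Cdkn1c fell by 0.79 and Ccnd1 by 0.57. Btg2, an antiproliferative gene, had 79, 80.2 and 83.6 CPM in LPS libraries, against 44.3, 46.6 and 44.2 CPM in vehicle libraries.

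**Figure D5:**
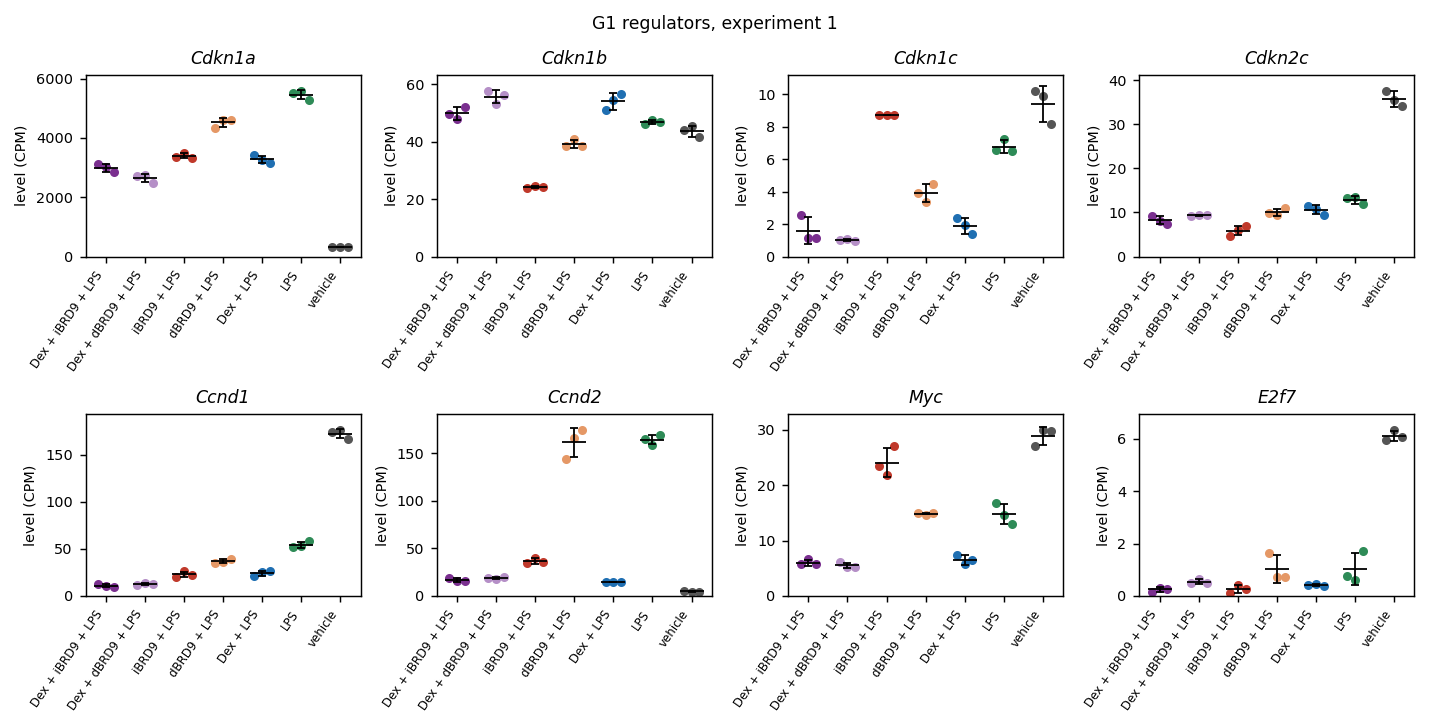
Level (CPM) of 8 regulators of G1 in each library of experiment 1, with the group mean and SD. Cdkn1a is lowest and Ccnd1 highest in vehicle libraries, and Cdkn1b is lowest in iBRD9 + LPS libraries, at 23.7 to 24.5 CPM.

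Experiment 2 asked the same of cells given IFNγ with LPS, with the degrader only and with fewer libraries. In IFNγ + LPS against vehicle libraries 4 genes of 57 rose and 42 fell, where 68.5% of all genes tested were called, 32.8% higher and 35.6% lower, with a median log2 fold change of -1.92 in mitosis genes and -1.04 in replication genes, against -0.11 over all genes. Kif23 had 0.364 and 0.443 CPM in IFNγ + LPS libraries, against 10.9 and 9.64 CPM in vehicle libraries, a fall of 4.65 ± 0.34. Mcm2 had 1.82 and 2.07 CPM in IFNγ + LPS libraries, against 8.72 and 9.12 CPM in vehicle libraries, a fall of 2.20. E2f1 had 8.14 and 7.39 CPM in IFNγ + LPS libraries, against 26.9 and 27.3 CPM in vehicle libraries. Mki67 again went the other way, with 133 and 134 CPM in IFNγ + LPS libraries, against 22.8 and 21.4 CPM in vehicle libraries (6.06-fold higher, log2 fold change 2.60 ± 0.12). Tpx2 had 35.7 and 37.2 CPM in IFNγ + LPS libraries, against 9.43 and 9.29 CPM in vehicle libraries, a rise of 1.96 ± 0.13. The other two that rose were Rfc3 (1.27 ± 0.16) and Ccne1 (1.00 ± 0.28). Scaled by library totals alone, the all-gene median was -0.76 and that of the set -1.88, 54 genes were called, Ccne1 was not called (0.35) and Rfc5, of the clamp loader, was -0.49 in place of 0.16. Over all genes, 2632 were then called higher and 7819 lower in place of 4371 and 4745.

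Libraries of experiment 2 held collagen reads, which were near 0 in experiment 1: Col1a1 had 187 to 559 counts a library in experiment 2 and at most 2 in experiment 1, and Col1a2 had 213 to 477 counts in experiment 2 and at most 1 in experiment 1. Stromal markers summed to 62.1 to 68.6 CPM in IFNγ + LPS libraries, against 50.7 to 50.9 CPM in vehicle libraries, and dendritic cell markers to 6.35 to 7.05 CPM, against 0.857 to 1.03 CPM. Neutrophil and myeloid progenitor sums overlapped, at 25.3 to 28 CPM in IFNγ + LPS libraries, against 23.9 to 28.9 CPM in vehicle libraries. The part of these cells in the result was not tested.

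Dex raised part of the set in this setting. In Dex + IFNγ + LPS against IFNγ + LPS libraries 15 genes rose and 3 fell of 57, where 19.9% of all genes tested were called, 10.7% higher and 9.21% lower, with a median of 0.79 in mitosis genes and 0.29 in replication genes. Nusap1 had 27.2 and 29.2 CPM in Dex + IFNγ + LPS libraries, against 6.56 and 6.95 CPM in IFNγ + LPS libraries, a rise of 2.06 ± 0.23 (4.18-fold). Plk1 had 2.04 and 3.48 CPM in Dex + IFNγ + LPS libraries, against 0.729 and 0.222 CPM in IFNγ + LPS libraries, a rise of 2.46 ± 0.52. Cdc20 had 2.93 and 2.66 CPM in Dex + IFNγ + LPS libraries, against 0.668 and 0.443 CPM in IFNγ + LPS libraries, a rise of 2.29 ± 0.46. The groups did not overlap for any of these, though Plk1 and Cdc20 rest on few reads. Cdt1 fell by 1.06 ± 0.15, with 9.8 and 8.47 CPM in Dex + IFNγ + LPS libraries, against 20.1 and 17.9 CPM in IFNγ + LPS libraries, and Rfc3 fell by 0.74 and Tpx2 by 0.54. Of the other mitosis genes 16 rose and 2 fell of 39. Without the first IFNγ + LPS library 11 of the set were called, without the second 9 and without the second Dex + IFNγ + LPS library 12. The neutrophil and myeloid progenitor sum was 9.94 to 13.4 CPM in Dex + IFNγ + LPS libraries, against 25.3 to 28 CPM in IFNγ + LPS libraries, with 3 of the 6 tested markers lower, and Mpo had 2 and 6 counts in Dex + IFNγ + LPS libraries, against 10 and 7 in IFNγ + LPS libraries. The stromal sum was 40 to 47.4 CPM in Dex + IFNγ + LPS libraries, against 62.1 to 68.6 CPM in IFNγ + LPS libraries, with 2 of the 5 tested lower. These sums were lower in the libraries in which the 15 genes rose, and their part in the result was not tested. The same drug thus gave a median of opposite sign from that in experiment 1, but the experiments were fitted apart and the difference was not tested.

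The degrader was compared with and without Dex. The neutrophil and myeloid progenitor sum was 13.9 to 15.3 CPM in dBRD9 + IFNγ + LPS libraries, against 25.3 to 28 CPM in IFNγ + LPS libraries, and its part in what follows was not tested. In dBRD9 + IFNγ + LPS against IFNγ + LPS libraries edgeR called 1 gene of the set, where 1.83% of all genes tested were called, 0.819% higher and 1.01% lower. This was Mcm2, with 4.39 and 4.18 CPM in dBRD9 + IFNγ + LPS libraries, against 1.82 and 2.07 CPM in IFNγ + LPS libraries, a rise of 1.14 ± 0.24 (adjusted p = 0.021) that lost its call when any of the 4 libraries was left out. At an unadjusted p under 0.05 there were 20, 19 higher and 1 lower. The share of all genes at an unadjusted p under 0.05 was not counted, here or for such counts below, so these have no background. In Dex + dBRD9 + IFNγ + LPS against Dex + IFNγ + LPS libraries edgeR called none of 57, where it called 1.40% of all genes tested, 0.233% higher and 1.16% lower. There limma voom called none and DESeq2 called 1, and 6 had an unadjusted p under 0.05 in edgeR. In Dex + dBRD9 + IFNγ + LPS against dBRD9 + IFNγ + LPS libraries 10 rose and 4 fell, where 28.4% of all genes tested were called, 14.0% higher and 14.4% lower. Nusap1 had 33.4 and 34.4 CPM in Dex + dBRD9 + IFNγ + LPS libraries, against 11.6 and 5.43 CPM in dBRD9 + IFNγ + LPS libraries. Cdt1 had 10.3 and 10.1 CPM in Dex + dBRD9 + IFNγ + LPS libraries, against 24.4 and 25.9 CPM in dBRD9 + IFNγ + LPS libraries. The split was 15 higher and 3 lower with library totals alone, 8 and 6 with RLE size factors and 7 and 5 with DESeq2. Without the second dBRD9 + IFNγ + LPS library 5 genes were called, and without either Dex + dBRD9 + IFNγ + LPS library 6. The stromal sum was 33.4 to 38.8 CPM in Dex + dBRD9 + IFNγ + LPS libraries, against 49.8 to 50.1 CPM in dBRD9 + IFNγ + LPS libraries, and its part was not tested. The interaction of Dex and dBRD9 was called in none of 57 by edgeR, DESeq2 or limma voom, where edgeR called 0.00751% of all genes tested. At an unadjusted p under 0.05 in edgeR there were 4, all lower.

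Between the experiments the levels of the same genes can be set side by side only as measured in separate tables. Summed over replication genes, experiment 2 had 487 to 492 CPM in Dex + dBRD9 + IFNγ + LPS libraries, 549 to 582 CPM in dBRD9 + IFNγ + LPS, 421 to 459 CPM in Dex + IFNγ + LPS, 459 to 461 CPM in IFNγ + LPS and 730 to 826 CPM in vehicle libraries. The mitosis sums were 279 to 295, 237 to 297, 301 to 323, 231 to 235 and 188 to 203 CPM in the same order of groups. In CPM, which is not scaled by exon length, the mitosis sum was lowest in vehicle libraries. Yet 23 of 28 mitosis genes had their highest mean there. Mki67 alone gave 133 and 134 CPM of the sum in IFNγ + LPS libraries, against 22.8 and 21.4 CPM in vehicle libraries. Without Mki67 the mitosis sum was 166 to 180 CPM in vehicle libraries and 96.2 to 101 CPM in IFNγ + LPS. It was then 94.8 to 132 CPM in dBRD9 + IFNγ + LPS, 141 to 144 CPM in Dex + IFNγ + LPS and 155 to 168 CPM in Dex + dBRD9 + IFNγ + LPS. Sums of TPM were not made. Among the cyclins, Ccnd2 had 358 and 386 CPM in IFNγ + LPS libraries, against 1.81 and 2.57 CPM in vehicle libraries, and Cdkn1a had 5779 and 5771 CPM in IFNγ + LPS libraries, against 171 and 160 CPM in vehicle libraries. Cdc25c had 2 and 0 counts in the IFNγ + LPS libraries, too few for a fold.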

How the data were processed

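The values used are raw read counts per gene and library, deposited by the authors in 1 table per experiment. Per the submitters' processing notes reads were handled on mm10. These notes name STAR, fastp and DESeq2, with no role or version. Which counter, annotation and strand setting were used is not given in the sources used here. Symbols, exon lengths and overlaps came from GENCODE M21 (mm10), and promoters from RefSeq (GRCm38.p6).

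Each experiment was fitted alone in edgeR 4.0.16 (R 4.3.3), with 1 coefficient per group and no replicate block. filterByExpr (minimum count 10, minimum total 15) left 12662 and 13313 genes, counts were scaled by TMM, and genes were tested by quasi-likelihood F tests with Benjamini-Hochberg adjustment over all genes. The common biological coefficient of variation was 6.79% and 10.6%. Every ± on a log2 fold change is an SE. Depth is given as total counts per library.

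The 57 genes, the other gene lists and the tests were chosen with earlier results of these data known. Levels in every library were fixed for 1 gene per role (the highest mean TPM) and 9 regulators. Further genes are up to 3 per class with the lowest and highest called change, those against their class and those not called. Library values of Cdc20, Cdt1, Mcm5, Mcm10, Bub1b, Plk1, Cdc25c and other genes were added after their values were seen.

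Alternatives were library totals alone, RLE size factors, DESeq2 1.42.0, limma voom 3.58.1, no filter, only the compared groups, a replicate block, leaving out each library, and leaving out the 2 libraries that stood apart. Tested on simulated data of 12662 genes with 100 planted changes per fold size, the test recovered 86% of 1.5-fold and 100% of 2-fold changes for iBRD9 + LPS against LPS. For dBRD9 + IFNγ + LPS against IFNγ + LPS (13313 genes) it recovered 40% and 83%.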

Additional observations from a re-analysis of the deposited data

Results flagged for a closer look

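The effect of iBRD9 under LPS differed with and without Dex by the interaction test in 44 genes of the set. Examples on the log2 scale were Cdc25c at 3.00, Bub1b at 2.69, Aurka at 1.19 and Tpx2 at 1.02 among mitosis genes, and Mcm10 at 1.84, Cdc45 at 1.84, E2f1 at -0.36 and Cdt1 at -0.61 among replication genes. The effect of dBRD9 under LPS differed with and without Dex in 8 genes. These calls depended on single libraries: leaving out 1 gave 0 to 4 called replication genes and 3 to 8 called mitosis genes. Those shown are Cdk1 (the mitotic kinase) at 0.60, Bub1b at 0.55, Ccnb1 (cyclin B1) at 0.51 and Top2a (a topoisomerase) at 0.51 among mitosis genes, and Tyms at 0.57, Pcna at -0.31, Ccne1 at -0.76 and Rrm2 at -0.79 among replication genes.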

How the results depend on the processing

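Over 14043 recomputed values of single genes of the set, 13478 kept their side of the threshold, 396 lost a call and 165 gained one. A further 4 turned round with a call in the main fit, the alternative or both. A change of sign in a gene called in neither fit is held among the 13478. The 4 were with library totals alone: Rfc3 (-0.38), Tyms (-0.24) and Ccne1 (-0.14) in LPS against vehicle, and Rfc5 (-0.49) in IFNγ + LPS against vehicle, and outside the set Cdkn1b (-0.41) in LPS against vehicle. TMM factors of vehicle libraries were 1.275 to 1.286 and, in experiment 2, 1.373 to 1.453, so the scaling sets the size of the changes against vehicle. With only the compared groups fitted, which leaves fewer libraries to estimate the spread, the count was 12 in place of 23 for Dex + iBRD9 + LPS against Dex + LPS, 6 in place of 14 for Dex + dBRD9 + LPS against Dex + LPS, 4 in place of 8 for the interaction of Dex and dBRD9 under LPS, 2 in place of 1 for dBRD9 + IFNγ + LPS against IFNγ + LPS and 1 in place of 0 for Dex + dBRD9 + IFNγ + LPS against Dex + IFNγ + LPS. With DESeq2 the count was 10 in place of 6 for Dex + iBRD9 + LPS against Dex + dBRD9 + LPS and 1 in place of 0 for Dex + dBRD9 + IFNγ + LPS against Dex + IFNγ + LPS. Without the filter it was 2 for dBRD9 + IFNγ + LPS against IFNγ + LPS and 1 for Dex + dBRD9 + IFNγ + LPS against Dex + IFNγ + LPS. For the fits of only the compared groups, for DESeq2 and for the filter the cause of the changed counts was not tested.

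Leaving out 1 library gave 52 to 54 called genes for LPS against vehicle, 49 to 51 for Dex + LPS and 52 to 55 for iBRD9 + LPS against LPS, and 19 to 31 for dBRD9 + LPS against LPS. It gave 16 to 23 for Dex + iBRD9 + LPS and 12 to 14 for Dex + dBRD9 + LPS against Dex + LPS, 36 to 42 for Dex + iBRD9 + LPS against iBRD9 + LPS, 43 to 46 for Dex + dBRD9 + LPS against dBRD9 + LPS, 48 to 51 for iBRD9 + LPS against dBRD9 + LPS and 4 to 8 for Dex + iBRD9 + LPS against Dex + dBRD9 + LPS. The interactions gave 41 to 46 with iBRD9 and 3 to 12 with dBRD9. In experiment 2 it gave 42 to 45 for IFNγ + LPS against vehicle, 9 to 14 for Dex + IFNγ + LPS against IFNγ + LPS, 0 for dBRD9 + IFNγ + LPS set against it, 5 to 17 for Dex + dBRD9 + IFNγ + LPS against dBRD9 + IFNγ + LPS and 0 for the comparison with Dex + IFNγ + LPS and for the interaction. There a lone library is assumed to vary like the other groups.

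With a replicate block 15 genes in place of 18 were called for Dex + IFNγ + LPS against IFNγ + LPS and 11 in place of 14 for Dex + dBRD9 + IFNγ + LPS against dBRD9 + IFNγ + LPS, and the other counts moved by at most 1. The libraries share only a number: in none of 10 comparisons with 3 pairs did every same-numbered pair correlate over 0.1 in its deviations from the group means. Every pair was above 0 in 3 of the 10, highest in Dex + dBRD9 + LPS against Dex + LPS (0.0866 to 0.31), and each library correlated best with its own number in 1, Dex + iBRD9 + LPS against Dex + LPS (0.0275 to 0.0645), a hint from the data. With 2 pairs, IFNγ + LPS against vehicle gave 0.116 and Dex + IFNγ + LPS against IFNγ + LPS gave -0.0935. The other comparisons with 2 pairs gave -0.0545, -0.0136 and -0.015. There the values of same-numbered and other pairs mirror each other.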

Other observations

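Outside the division genes, the transcription factors Klf4 and Klf2, known for their part in quiescence, rose with Dex. Klf4 rose by 3.40 and Klf2 by 1.68 on the log2 scale in Dex + LPS against LPS libraries, and by 2.32 and 4.35 in Dex + IFNγ + LPS against IFNγ + LPS libraries. Csf1, the gene of the macrophage growth factor, rose by 5.13 in LPS against vehicle libraries. In the pocket protein family, which binds E2F, Rbl2 (p130) rose by 1.01 and Rbl1 (p107) fell by 1.53 in Dex + LPS against LPS libraries, while Rbl1 rose by 2.65 in IFNγ + LPS against vehicle libraries.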
